A study of Drosophila melanogaster with 16 samples.

Results

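The effect of the dLmx1a genotype was measured in larval fat body dissected without ovaries, in 8 of the 16 libraries of a Drosophila melanogaster RNA-seq series. The 4 libraries from animals labelled homozygous for the dLmx1a allele delta1 were set against the 4 from heterozygotes carrying delta1 over the balancer chromosome TM3-GFP. All animals were female, were raised at 25 °C, came from the dLmx1a knock-out stock and were taken at the step between late larva (LL3) and prepupa (P0). They were sorted by whether the GFP of the balancer was seen, so every heterozygote carries TM3 and delta1, and the set has no wild type. The other 8 libraries of the series hold fat body together with ovaries from the same genotypes. The genotype entry of the samples titled homozygous counts up the allele number from 1 replicate to the next, and the titles were followed. The libraries are therefore called homozygous or heterozygous as labelled.

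dLmx1a encodes a LIM homeodomain transcription factor. The larval fat body is the insect counterpart of liver and adipose tissue: it makes the hexamerin storage proteins, stores lipid and glycogen, detoxifies and secretes immune peptides. At the end of larval life a pulse of the steroid ecdysone moves it from growth to remodelling. A balancer such as TM3 carries many inversions and its own set of variants, and it stays in the stock without recombining with its partner.

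The 8 libraries held between 19022106 reads (homozygous replicate 1) and 32755588 reads (homozygous replicate 3) counted on genes, and between 10105 and 10780 genes had at least 1 read. Values are normalised counts, which are reads divided by a size factor of the library, as the authors deposited them. The 6 genes Fbp1, Fbp2, Lsp1alpha, Lsp1beta, Lsp1gamma and Lsp2 took 52.9% to 58.7% of all counts, and all 18 fat body markers were present. Principal component 1 (40.1% of variance) set homozygous replicate 1 apart at -60.6, with heterozygous replicate 1 next at -18.9 and the other 6 between -10.2 and 29.98. Component 2 (21.9%) separated the genotypes, at -2.07 to 38.4 in homozygous libraries and -25.8 to -8.96 in heterozygous ones. Heterozygous replicate 2 held more ovarian transcripts than the other 7 libraries. Its normalised counts were 54.2 for piwi (0 to 4.30 elsewhere), 34.8 for vas (1.95 to 9.43 elsewhere) and 70.6 for bab2 (1.53 to 7.80 elsewhere). Those 3 genes averaged 1172, 511 and 1339 in the homozygous libraries with ovaries and 1147, 556 and 1215 in the heterozygous ones. The count of calls, the named calls and the medians of the main gene lists are also given without homozygous replicate 1 and heterozygous replicate 2. The labels do not state whether replicates are separate pools of animals, so a p-value here reflects library-to-library spread alone.

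In fat body of either genotype the targeted gene, dLmx1a (CG32105; 3L, 12329232 to 12335901, build dm6), was barely read. Its normalised counts were 4.59, 0, 0.974 and 0 in homozygous libraries, where 0 reads allow up to 3.64 and 2.99, and 2.83, 23.5, 1.11 and 0 in heterozygous ones, where 0 reads allow up to 3.22. The groups overlapped, and the 1 value above 5 belongs to the heterozygous library with ovarian transcripts, whose part in it was not tested. The gene fell below the mean of 10 normalised counts asked of a tested gene. Fitted without that filter, its log2 fold was -1.04 ± 0.96 (SE, limma, Benjamini-Hochberg adjusted p = 0.737), so a change of dLmx1a RNA in fat body was not detectable at this depth. Its neighbour CG4328, a related LIM homeobox gene, had at most 4.59 normalised counts. The counts cover the whole gene, so they do not check the genotype.

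Of the 7481 genes tested with limma on log2(normalised count + 1), 78 (1.04%) passed a Benjamini-Hochberg adjusted p of 0.05. In homozygous fat body 21 of them were higher (0.281% of tested genes) and 57 were lower (0.762%), and 44 of the lower but 9 of the higher ones moved by at least 1 log2 unit. In each of the 78 the 4 homozygous values lay wholly to 1 side of the 4 heterozygous ones, which held for 373 higher (4.99%) and 363 lower genes (4.85%) among all tested. At an unadjusted p under 0.05 there were 1066 genes. With libraries scaled to equal totals the split was 14 higher and 92 lower, and with DESeq2 on the recovered reads it was 247 and 218. Libraries with the same replicate number deviated together in the 2 genotypes, and with that number as a block 759 genes (10.1%) passed, 393 higher and 366 lower, including all 78. The number of calls moved with single libraries. It was 117 without homozygous replicate 1, 41 without replicate 2, 28 without replicate 3 and 54 without replicate 4. It was 45 without heterozygous replicate 1, 16 without replicate 2, 8 without replicate 3 and 22 without replicate 4. Without homozygous replicate 1 and heterozygous replicate 2 together it was 37, of which 25 were among the 78.

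**Figure D1:**
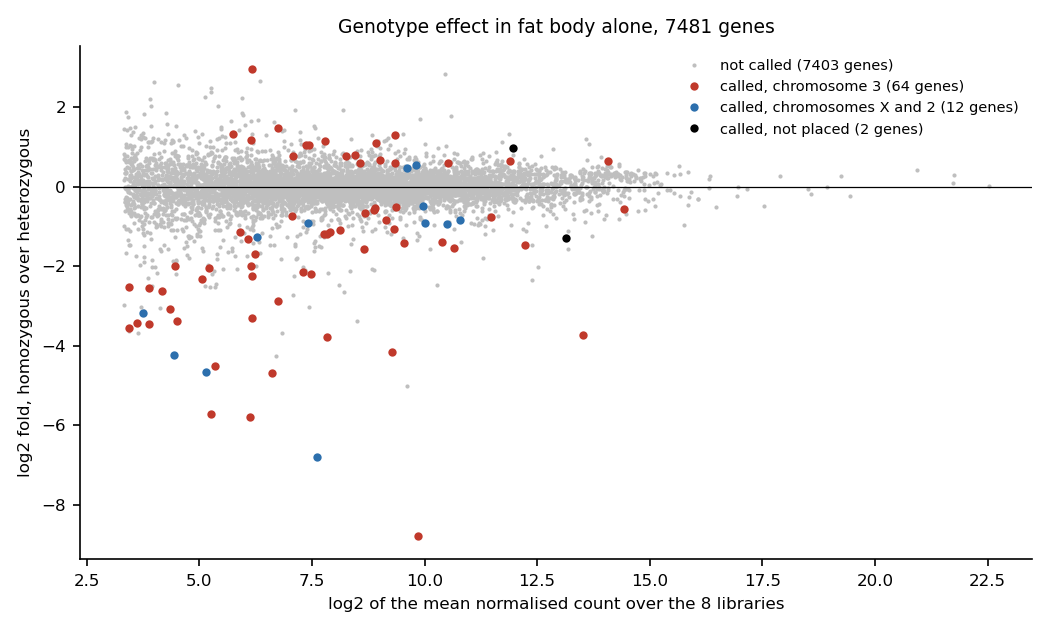
The log2 fold of homozygous over heterozygous fat body (vertical axis) is plotted against the log2 mean normalised count over the 8 libraries (horizontal axis) for 7481 genes. Called genes are coloured by chromosome, and the genes that fell reach -8.78 while those that rose reach 2.97.

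CG11893 and CG13658, a pair of ecdysteroid kinase-like genes lying 959 bases apart on arm 3R, were close to silent in homozygous fat body. CG11893 (25289889 to 25291366) had 4.59, 2.43, 1.95 and 3.99 normalised counts in homozygous libraries and 1689, 1305, 2658 and 1789 in heterozygous ones. The lowest heterozygous library thus stood far above every homozygous one, with a log2 fold of -8.78 ± 0.28 (SE, n = 4 per group, limma adjusted p = 3.61e-06). CG13658 (25287474 to 25288930) had 3.06, 0, 2.92 and 0.998 in homozygous libraries and 154, 74.7, 176 and 145 in heterozygous ones, a log2 fold of -5.80 ± 0.51 (adjusted p = 0.00286). Again no homozygous value came near the heterozygous range. Family members in arrays can share reads, and the authors' handling of these is not stated. Of 44 family members listed, 18 were tested, 2 fell and none rose, and the list's median log2 fold was 0.08, beside 0.00 over all tested genes. With the replicate block 5 fell, where 4.89% of all tested genes did. They included CG13659 on 3R, at -2.72 ± 0.42 (limma adjusted p = 0.019 with the block, 0.127 without). It had 139, 23.1, 16.6 and 15.97 normalised counts in homozygous fat body and 319, 129, 271 and 167 in heterozygous fat body. Homozygous replicate 1 alone lay within the heterozygous range.

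Detoxification was represented by 1 large change. Cyp6d5, a cytochrome P450 gene (3R, 14029228 to 14031483), had 964, 1992, 2294 and 1582 normalised counts in homozygous fat body and 17243, 23230, 23996 and 21789 in heterozygous fat body. The groups were far apart, with a log2 fold of -3.72 ± 0.26 (limma adjusted p = 0.000633). It was the only call with limma without the block among 48 tested P450 genes, whose median log2 fold was -0.06. With the block 2 fell and 3 rose, where 4.89% of all tested genes fell and 5.25% rose. The risers included Cyp12a4 at 1.69 ± 0.25 (limma adjusted p = 0.0159 with the block, 0.205 without). None of the 26 tested glutathione S-transferase genes, whose products join glutathione to toxic compounds, was called without the block (6 at an unadjusted p under 0.05). With the block 3 of them fell and 2 rose, beside the same shares of all tested genes.

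Several other genes of low or moderate level were almost absent from homozygous libraries. CG42326 (2R, 8573368 to 8584779) had 1.53, 3.64, 2.92 and 1.996 normalised counts in homozygous fat body and 280, 347, 452 and 469 in heterozygous fat body. Its log2 fold of -6.79 ± 0.27 (limma adjusted p = 1.08e-05) was the largest of any call off chromosome 3. ms(3)76Ba, a gene named for a male-sterile mutant, had 0, 1.21, 0 and 0.998 in homozygous libraries and 59.4, 83.9, 89.1 and 72.0 in heterozygous ones. It fell by 5.72 on the log2 scale (SE 0.41, limma adjusted p = 0.000647). LysX, a lysozyme gene, had 7.65, 3.64, 13.6 and 1.996 in homozygous libraries and 64.1, 303, 187 and 202 in heterozygous ones (log2 fold -4.68 ± 0.60, limma adjusted p = 0.0137). It is 1 of 7 lysozyme genes in the table and the only one tested, and near-identical copies could share its reads. The gene rtet had 4.59, 2.43, 0 and 5.99 in homozygous libraries and 79.2, 103, 57.9 and 72.0 in heterozygous ones (log2 fold -4.51 ± 0.59, limma adjusted p = 0.0147). In none of these 4 genes did a homozygous library reach the heterozygous range.

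The eye colour gene w, which encodes a transporter of pigment precursors and is a common marker in fly stocks, had 3.06, 0, 1.95 and 2.99 normalised counts in homozygous fat body and 41.5, 71.6, 99.2 and 63.4 in heterozygous fat body. Its log2 fold was -4.67 ± 0.52 (limma adjusted p = 0.0085), and all 4 homozygous libraries lay below all 4 heterozygous ones. Ser, a Notch ligand gene whose dominant allele often marks TM3, had 4.59, 41.3, 19.5 and 33.9 in homozygous libraries and 66.0, 141, 89.1 and 60.2 in heterozygous ones. Its log2 fold of -2.07 passed with the block (limma adjusted p = 0.0346) and not without it (0.188), although the groups did not overlap. Of 5 tested markers that the balancer may carry, w was the only call with limma without the block. DESeq2 on the recovered reads called 2 of the 5 as lower, where it called 218 of all 7481 tested genes as lower.

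Mlc2, the regulatory light chain gene of muscle myosin, had 65.8, 47.3, 11.7 and 17.0 normalised counts in homozygous fat body and 660, 364, 268 and 400 in heterozygous fat body (log2 fold -3.78 ± 0.54, limma adjusted p = 0.0197). The groups did not overlap. It was the only call among 13 tested muscle markers, 10 of which had positive folds, with a median of 0.33. The summed muscle markers ranged from 3586 to 5476 in homozygous libraries and from 3299 to 5384 in heterozygous ones. Mhc, the muscle myosin heavy chain gene, had 50.5, 36.4, 18.5 and 23.0 in homozygous libraries and 19.8, 17.4, 29.0 and 16.1 in heterozygous ones.

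Genes of cell division and DNA replication were among the smaller decreases. Cks85A, which encodes a subunit of cyclin-dependent kinases (3R, 8712906 to 8718456), had 27.5, 21.8, 22.4 and 24.0 normalised counts in homozygous fat body and 84.9, 164, 107 and 126 in heterozygous fat body. It fell by 2.25 on the log2 scale (SE 0.22, limma adjusted p = 0.00399). Psf1, a subunit gene of the GINS replication complex, had 19.9, 15.8, 11.7 and 9.98 in homozygous libraries and 67.9, 65.5, 57.9 and 50.5 in heterozygous ones (log2 fold -2.04 ± 0.25, limma adjusted p = 0.013). Both genes kept a low but clear level in homozygous libraries. None of 19 tested cell cycle genes of the list was called (1 at an unadjusted p under 0.05), and 12 had positive folds. That 1 was CycA, the cyclin A gene, at 18.4, 21.8, 19.5 and 15.0 in homozygous libraries and 39.6, 63.4, 37.9 and 41.9 in heterozygous ones. Its log2 fold of -1.23 had an adjusted p of 0.0568 with limma, and 0.0218 with the block.

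Among well expressed genes, fry, whose large product regulates NDR kinases in cell shape, had 2159, 2331, 2848 and 2639 normalised counts in homozygous fat body and 4903, 6869, 7052 and 9437 in heterozygous fat body (log2 fold -1.47 ± 0.19, limma adjusted p = 0.0147). P5cr-2, a pyrroline-5-carboxylate reductase gene of proline synthesis, had 792, 820, 746 and 588 in homozygous libraries and 1370, 1973, 2045 and 2430 in heterozygous ones (log2 fold -1.39 ± 0.19, limma adjusted p = 0.0148). Tequila, a serine protease gene, had 4389, 6651, 4989 and 5132 in homozygous libraries and 11125, 13860, 13150 and 13067 in heterozygous ones (log2 fold -1.29 ± 0.14, limma adjusted p = 0.00829). These 3 fell in every homozygous library, to less than the lowest heterozygous value. The gene hdly had 59.7, 102, 43.9 and 56.9 in homozygous fat body and 272, 253, 332 and 313 in heterozygous fat body, a log2 fold of -2.20 ± 0.24 (limma adjusted p = 0.00829).

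The increases were smaller. Of the named symbols the largest was HipHop, a telomere capping gene on 3L, with 112, 91.0, 96.5 and 95.8 normalised counts in homozygous fat body and 58.5, 46.0, 30.1 and 40.8 in heterozygous fat body (log2 fold 1.19 ± 0.21, limma adjusted p = 0.0392). Sirt2, a NAD-dependent deacetylase gene, had 223, 263, 202 and 212 in homozygous libraries and 98.1, 117, 91.4 and 126 in heterozygous ones (log2 fold 1.06 ± 0.14, limma adjusted p = 0.0148). Both were higher in each homozygous library than in any heterozygous one. The largest increase of any gene was that of CG33093, at 135, 135, 168 and 66.9 in homozygous fat body and 31.1, 5.12, 12.3 and 20.4 in heterozygous fat body (log2 fold 2.97 ± 0.52, limma adjusted p = 0.0392). It was followed by CG7886 at 1.48 ± 0.23, CG12290 at 1.33 ± 0.18 and CG4360 at 1.31 ± 0.16.

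CTCF, an insulator protein gene, had 491, 442, 474 and 387 normalised counts in homozygous fat body and 298, 239, 261 and 236 in heterozygous fat body (log2 fold 0.79 ± 0.12, limma adjusted p = 0.0224). The gene su(Hw), which also encodes an insulator protein, had 661, 596, 661 and 630 in homozygous libraries and 426, 378, 409 and 372 in heterozygous ones (log2 fold 0.68 ± 0.09, limma adjusted p = 0.0137). Membrin, a SNARE gene of the Golgi, rose by 0.78 ± 0.11, and aux, the auxilin gene that uncoats clathrin vesicles, by 0.59 ± 0.09. The mitochondrial ribosomal gene mRpL9 rose by 0.79 ± 0.14. It was the only call with limma without the block of 72 tested genes of that ribosome, whose median log2 fold was 0.05. DNA ligase gene lig3 (0.60 ± 0.09), glutaminyl cyclase gene QC (0.60 ± 0.10) and nrv1, a beta subunit gene of the sodium pump (0.55 ± 0.08), made up the smaller increases. The gene pst had 23582, 20875, 19855 and 19754 in homozygous libraries and 13493, 14106, 12862 and 13398 in heterozygous ones (log2 fold 0.64 ± 0.10, limma adjusted p = 0.0243). With equal totals HipHop, QC, mRpL9, pst and lig3 no longer passed, with no filter HipHop, QC, mRpL9 and pst, and with a mean of at least 50 HipHop. No increase passed with limma without heterozygous replicate 2 or 3 (430 and 363 at an unadjusted p under 0.05).

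**Figure D2:**
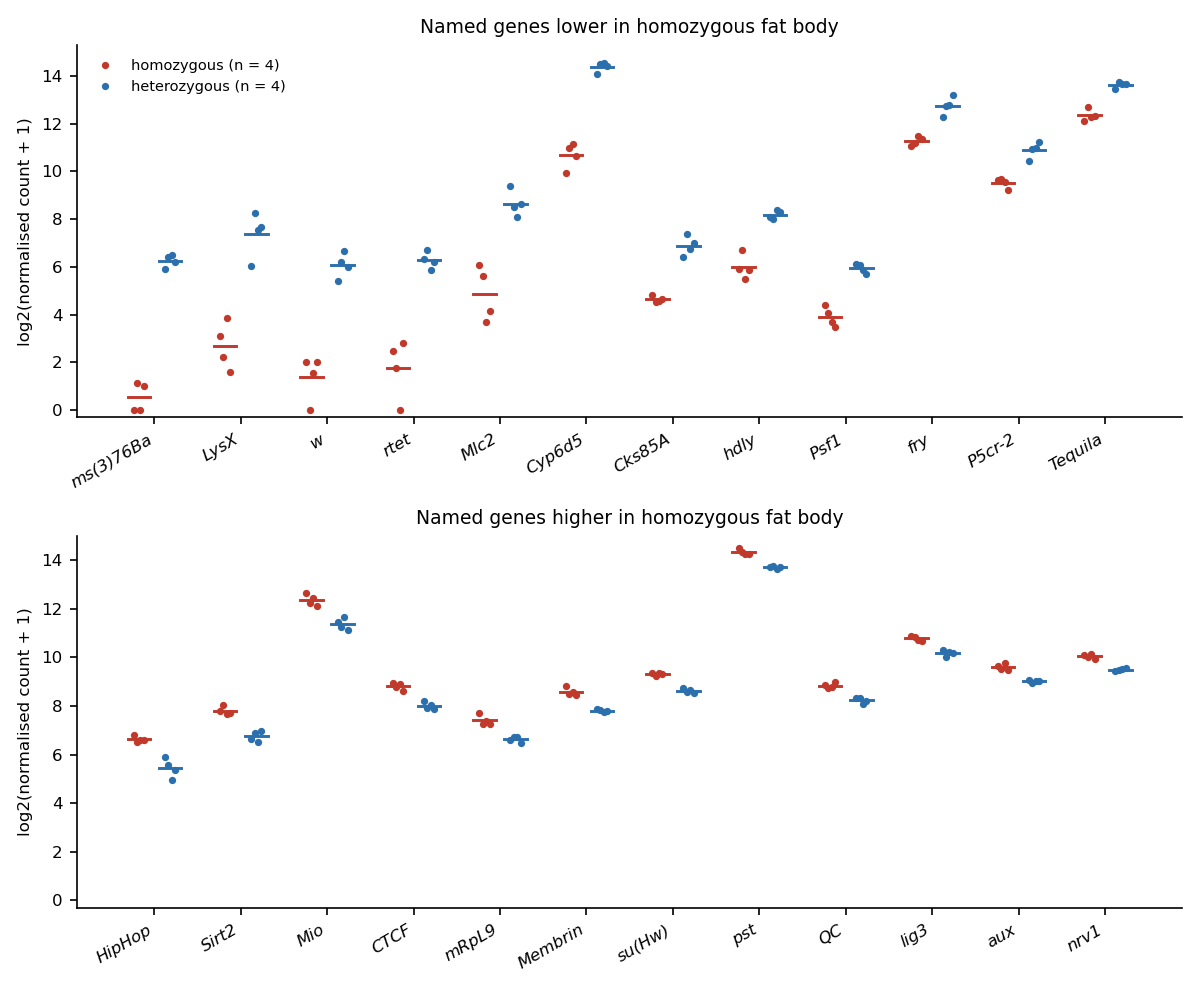
The log2(normalised count + 1) of each library is shown for the 12 named symbols with the largest decreases (upper panel) and increases (lower panel), with homozygous libraries in red left of heterozygous ones in blue and lines at the group means (n = 4 each). The groups do not overlap in any of the 24 genes, and the decreases span a wider range than the increases.

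Of the 32 named calls, 6 passed in every fit that left out 1 library: CG11893, CG13658, CG42326, ms(3)76Ba, Cyp6d5 and Cks85A. Across those 8 fits their folds stayed within -8.93 to -8.59, -6.06 to -5.38, -6.94 to -6.65, -5.92 to -5.54, -3.88 to -3.47 and -2.40 to -2.09. The highest adjusted p among them was 0.0315 with limma, for Cks85A. Another 2, Tequila and hdly, passed in 7 of the 8 and missed without heterozygous replicate 3 (limma adjusted p = 0.0583 for each). The other 24 were lost in at least 2 such fits, and each kept its direction. Without homozygous replicate 1 and heterozygous replicate 2 together, 15 of the 32 passed: those 8, CG4360, CG7886, Membrin, Mlc2, Psf1, Tpi and w. The other 17 had limma adjusted p-values of 0.0637 to 0.125 there. They were LysX, rtet, fry and P5cr-2 among the decreases, and HipHop, Sirt2, Mio, CTCF, su(Hw), mRpL9, pst, QC, lig3, aux, nrv1, CG33093 and CG12290 among the increases.

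The calls were unevenly spread over the chromosomes. Of 76 called genes with a position, 64 lay on chromosome 3, which is 84.2% (exact binomial 95% interval 74.0 to 91.6), while 43.5% of the tested genes with a position lie there. That interval takes the calls as independent draws, which genes read in the same libraries are not. On arm 3L 7 genes rose and 19 fell of 1409 tested (1.85%), and on 3R 11 rose and 27 fell of 1803 (2.11%). The share called was 0.489% on X, 0.152% on 2L and 0.255% on 2R, and no gene was called among the 61 tested on chromosome 4 (10 at an unadjusted p under 0.05). With the replicate block 12.9% of tested chromosome 3 genes and 7.97% of the others were called, so chromosome 3 held 55.4% of those calls. The homozygous and heterozygous animals differ in both dLmx1a and a whole chromosome 3, TM3 against a second copy of the delta1 chromosome, and the effects of these cannot be told apart here. No gene was called among 121 tested within 1 Mb of dLmx1a (23 at an unadjusted p under 0.05). Tequila and Mio were not placed by the reference table.

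**Figure D3:**
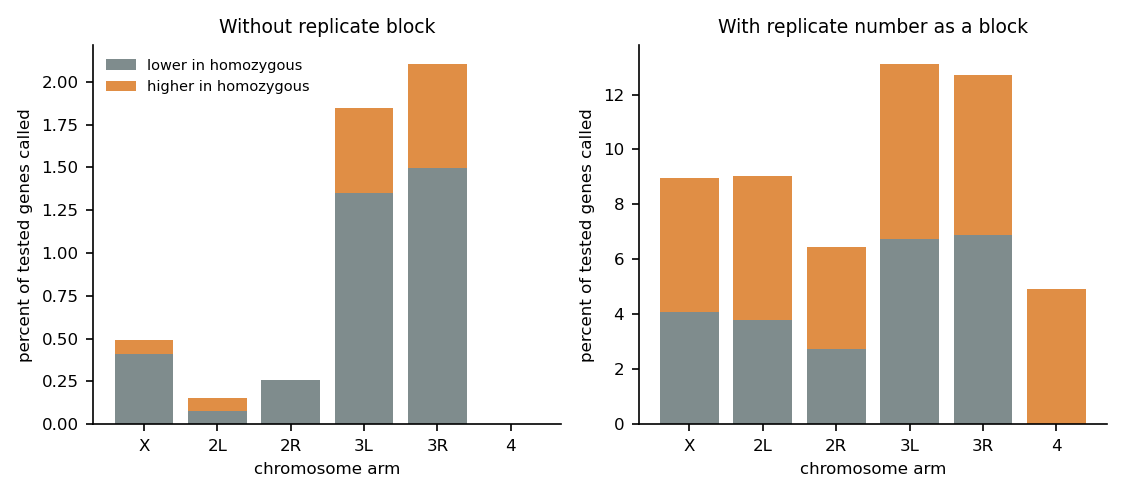
Bars give the percent of tested genes called on each chromosome arm, split into genes lower (grey) and higher (orange) in homozygous fat body, without (left) and with (right) the replicate number as a block. Arms 3L and 3R reach 1.85% and 2.11% without the block, and no other arm passes 0.489%.

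Called genes also lay next to each other in 5 pairs under 1000 bases apart, all on chromosome 3, and 4 of the pairs changed in the same direction. How often tested genes in general lie this close or share a direction was not counted. CTCF and pst, 562 bases apart, both rose, as did CG4360 and Sirt2, 462 bases apart. Cks85A and CG11760, 742 bases apart, both fell, as did the kinase-like pair. HipHop rose by 1.19 while Cat, the catalase gene 251 bases away, fell by 0.56 on the log2 scale. Cat had 17504, 18868, 18566 and 16641 normalised counts in homozygous libraries and 24720, 25940, 27523 and 27635 in heterozygous ones. Exons of 26 of the 76 called genes in the annotation overlap a gene on the opposite strand, among them CTCF, Membrin, P5cr-2, QC, aux, lig3, mRpL9, su(Hw), Cks85A and CG7886. Use of strand in the counting is not stated, so these values may include reads of the partner. Such overlaps were not counted over all tested genes.

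With limma on the 8 libraries as deposited, the only glycolysis gene called without the block was Tpi, the triose phosphate isomerase gene. It had 2541, 1875, 2059 and 2029 normalised counts in homozygous fat body and 4002, 3462, 3411 and 3484 in heterozygous fat body (log2 fold -0.76 ± 0.11, limma adjusted p = 0.0234). Of 13 tested glycolysis genes 9 had negative folds, with a median of -0.24, and of -0.41 without homozygous replicate 1 and heterozygous replicate 2. Gapdh2 (-0.55 ± 0.10) and Pgi (-0.54 ± 0.13), 2 more enzymes of the pathway, passed with the block (limma adjusted p = 0.0262 and 0.0491, against 0.0582 and 0.255 without it). With the block 3 glycolysis genes fell, where 4.89% of all tested genes did. Without it 2 fell with equal totals, with TMM factors, with DESeq2 on the recovered reads, over all 16 libraries and without homozygous replicate 1. None of 9 tested genes of glycogen and trehalose metabolism was called without the block (3 at an unadjusted p under 0.05). With the block 2 fell, where 4.89% of all tested genes did. The 2 included Pgm, the phosphoglucomutase gene, at -0.61 ± 0.14. None of the 23 tested lipid genes was called without the block (1 at an unadjusted p under 0.05). The perilipin gene Lsd-2 passed as higher with the block, at 0.46 ± 0.09 (limma adjusted p = 0.0276, against 0.515 without it).

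None of 18 fat body markers was called with limma (1 at an unadjusted p under 0.05). Their median log2 fold was 0.08, against -0.02 with equal totals and 0.00 without homozygous replicate 1 and heterozygous replicate 2. None of the 6 storage protein genes was called (0 at an unadjusted p under 0.05), with a median of 0.18, and of 0.10 without those libraries. With the block 2 of the 18 markers passed as higher, where 5.25% of all tested genes did. They were vkg and Cg25C, the collagen IV genes of basement membranes, which rose by 0.44 ± 0.08 and 0.39 ± 0.08 (limma adjusted p = 0.0286 and 0.0392). Lsp1beta, a storage hexamerin gene, ranged from 1662902 to 3331999 normalised counts in homozygous libraries and from 1107014 to 2621516 in heterozygous ones, and replicate 1 was the highest library of each genotype. None of 18 tested ecdysone response genes was called (1 at an unadjusted p under 0.05, a median of 0.03, and of -0.08 with equal totals). Eip71CD, an ecdysone-induced gene, had the smallest p of them, at 1544, 3157, 4120 and 5927 in homozygous libraries and 4482, 6190, 7052 and 7647 in heterozygous ones. Its groups overlapped, and its log2 fold of -0.91 passed with the block (limma adjusted p = 0.0308) and not without it (0.328).

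No immune list held a call with limma without the block apart from LysX. None of 9 tested antimicrobial peptide genes was called (1 at an unadjusted p under 0.05), with a median log2 fold of -0.88, and of -0.41 without homozygous replicate 1 and heterozygous replicate 2. That median was -0.38 with a mean of at least 50 and -0.25 with no filter. In the libraries with ovaries it had the opposite sign, at 0.44. IM2 and IM3, immune induced peptide genes, were high in 1 homozygous library, replicate 2, at 644 and 1802, where the other 7 libraries had at most 1.53 and 166. Among the libraries with ovaries homozygous replicate 2 was the highest too, at 172 and 479. None of 27 genes of immune recognition and signalling was called (4 at an unadjusted p under 0.05). With the block 2 rose and 1 fell, where 5.25% of all tested genes rose and 4.89% fell. PGRP-SD, a peptidoglycan recognition gene, had 1995, 2680, 2865 and 2048 in homozygous fat body and 1561, 1536, 1436 and 1602 in heterozygous fat body. Its groups did not overlap, and its log2 fold of 0.63 passed with the block (limma adjusted p = 0.0336) and not without it (0.0852). With the block PGRP-SB1 also rose, by 1.20 ± 0.21 (limma adjusted p = 0.0231), while PGRP-SA had a fold of -0.42 ± 0.07 (0.0202). TotB, a stress-induced Turandot gene, had 16.8, 2.43, 1.95 and 21.96 in homozygous libraries and 158, 40.9, 219 and 371 in heterozygous ones. Its log2 fold of -4.25 had a limma adjusted p of 0.0748, and 0.00985 with the block.

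Of the 41 gene lists read, 34 held no call with limma, nor with edgeR on the recovered reads. DESeq2 on those reads made calls in 12 of the 34, and over the 7481 tested genes it called 247 higher and 218 lower. In these lists it called 56 of 82 cytosolic ribosomal genes as higher. It called 3 glutathione S-transferase genes as lower and 1 as higher, of 26. It also called 2 of 31 proteasome genes lower, 2 of 27 genes of immune recognition and signalling higher and 1 of 18 fat body markers lower. Among lists with a limma call it called 2 of 48 P450 genes and 3 of 18 kinase-like genes lower. There it also called 2 of 13 glycolysis genes lower and 2 of 72 mitochondrial ribosomal genes higher. The lists without a limma call included 19 tested genes of insulin and TOR signalling (median log2 fold -0.02), 19 of autophagy (-0.04), 18 of the vacuolar ATPase (-0.04), 14 heat shock and chaperone genes (0.13), 15 serpin genes (0.03), 14 basement membrane genes (0.00) and 13 of amino acid and purine metabolism (-0.01). At an unadjusted p under 0.05 they held 0, 1, 1, 3, 1, 2 and 1 genes.

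The proteasome, the complex that degrades ubiquitin-tagged proteins, showed small shifts of 1 sign. None of its 31 tested genes was called (13 at an unadjusted p under 0.05), yet all 31 had negative folds, with a median of -0.30, beside 0.00 over all tested genes. Without homozygous replicate 1 and heterozygous replicate 2 the median was -0.18. Within each same-number pair of libraries all 31 were lower in the homozygous library, with medians of -0.18, -0.32, -0.34 and -0.35 in pairs 1 to 4. With the block 20 passed as lower, where 4.89% of all tested genes did. Prosbeta3, a core subunit gene, had 1354, 1983, 1698 and 1800 normalised counts in homozygous libraries and 1899, 2945, 2728 and 2879 in heterozygous ones. Its groups overlapped, but each homozygous library was below its heterozygous partner, with a log2 fold of -0.60 ± 0.07 (limma adjusted p = 0.00985 with the block, 0.177 without). The block result was sensitive to single pairs. Without pair 1, 2, 3 or 4 the number of proteasome genes that passed was 3, 2, 0 and 2.

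The calls include 3 genes of ubiquitin and related pathways, named here after their values were seen; they belong to no list, so no share of tested genes stands behind them. Uch, a ubiquitin hydrolase gene, had 627, 819, 700 and 732 normalised counts in homozygous fat body and 996, 1488, 1412 and 1524 in heterozygous fat body (log2 fold -0.90 ± 0.15, limma adjusted p = 0.0386). Uch-L5, a deubiquitinase gene, had 399, 381, 401 and 444 in homozygous libraries and 620, 715, 793 and 787 in heterozygous ones (log2 fold -0.84 ± 0.11, limma adjusted p = 0.0137). CSN5, the catalytic subunit gene of the COP9 signalosome, fell by 0.50 on the log2 scale (SE 0.09, limma adjusted p = 0.0413).

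Genes of the cytosolic ribosome lay on the other side. None of 82 tested genes was called (69 at an unadjusted p under 0.05), and 81 had positive folds, with a median of 0.32. The median was 0.34 without homozygous replicate 1 and heterozygous replicate 2, and 0.22 with libraries scaled to equal totals, a scaling that moved the median of all genes to -0.10. Pair medians were 0.37, 0.30, 0.46 and 0.13, and with the block 13 genes passed as higher, where 5.25% of all tested genes did. RpL8 had 19181, 20714, 20142 and 16524 normalised counts in homozygous libraries and 13746, 15570, 12804 and 13671 in heterozygous ones. All 4 homozygous values lay above the heterozygous ones, with a log2 fold of 0.45 ± 0.09 (limma adjusted p = 0.0316 with the block, 0.130 without). The block calls did not hold without single pairs, where 0, 0, 0 and 3 ribosomal genes passed. With equal totals none passed in the block fit, while 28 proteasome genes did.

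**Figure D4:**
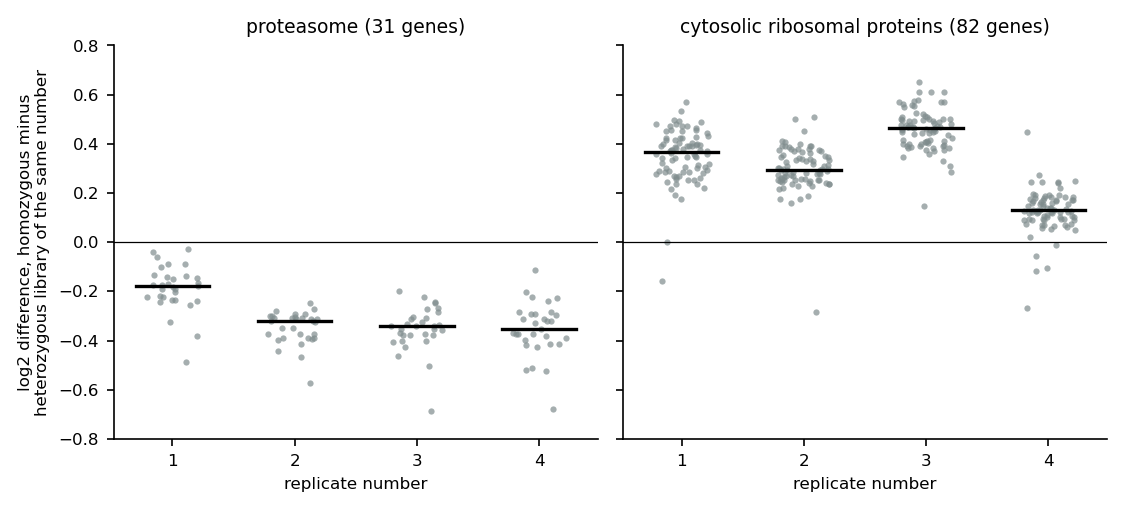
Each point is 1 gene, and its height is the log2(normalised count + 1) of the homozygous library minus that of the heterozygous library of the same replicate number, for 31 proteasome genes (left) and 82 cytosolic ribosomal genes (right). Black lines are medians, which run from -0.35 to -0.18 for the proteasome and from 0.13 to 0.46 for the ribosome.

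Markers of other tissues reached the level of a tested gene to differing extents. For trachea 7 of 7 were tested, for hemocytes 11 of 12, for muscle 13 of 16 and for ovarian somatic cells 9 of 16. For neurons it was 5 of 9 and for gut 2 of 14. In such bulk samples fewer cells of a type and less RNA per cell cannot be told apart. Of 25 germline markers 5 were tested and none was called (2 at an unadjusted p under 0.05), with 4 negative folds and a median of -0.47 (-0.70 without homozygous replicate 1 and heterozygous replicate 2). The summed counts of the listed germline markers were 9576 to 11639 in homozygous libraries and 10578 to 12581 in heterozygous ones. The germline genes vas, piwi and nos had at most 34.8, 54.2 and 9.21 in any of the 8 libraries, a small part of those sums. The defining germline gene bam was at 0 in 4 of the 8 libraries and at most 1.07 in the rest. AGO3, an Argonaute gene of the piRNA pathway, had 12.2, 19.4, 13.6 and 8.98 in homozygous fat body and 27.4, 51.2, 45.7 and 34.4 in heterozygous fat body. Its log2 fold of -1.49 had a limma adjusted p of 0.0748, and 0.0199 with the block. Without homozygous replicate 1 and heterozygous replicate 2 it was -1.32 (limma adjusted p = 0.193). Of 9 tested ovarian somatic markers 7 had negative folds, with a median of -0.39, and of -0.15 without those libraries. None of those 9, 11 hemocyte markers, 5 neuron markers or 7 tracheal markers was called (3, 0, 1 and 0 at an unadjusted p under 0.05). Hemocyte marker sums were 22499 to 61417 in homozygous libraries and 33687 to 57584 in heterozygous ones.

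The same genotypes were compared in the libraries with ovaries, which the fat body comparison did not use. There 232 of 7890 tested genes (2.94%) were called, 96 higher (1.22%) and 136 lower (1.72%). Of the 78 fat body calls 77 were tested there, and all 77 had the same sign of fold. In the same direction 52 passed in both, 16 higher and 36 lower, which is 66.7% of the fat body calls and 22.4% of the calls with ovaries. Those libraries also hold fat body, and same-number libraries of the 2 preparations deviated together, at correlations across genes of 0.298 to 0.648 in homozygotes and 0.104 to 0.321 in heterozygotes. They are therefore not fully separate evidence. With ovaries the log2 fold was -9.35 ± 0.36 for CG11893, -6.46 ± 0.61 for CG42326, -5.91 ± 0.34 for ms(3)76Ba, -3.73 ± 0.19 for Cyp6d5 and -4.06 ± 0.36 for Mlc2. LysX and w had folds of -6.35 ± 0.61 and -6.04 ± 0.43 there. The genes su(Hw) and CTCF rose by 0.69 ± 0.08 and 0.51 ± 0.08. HipHop had a fold of 0.16 ± 0.11 with ovaries (limma adjusted p = 0.503) and nrv1 of 0.16 ± 0.08 (0.314).

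**Figure D5:**
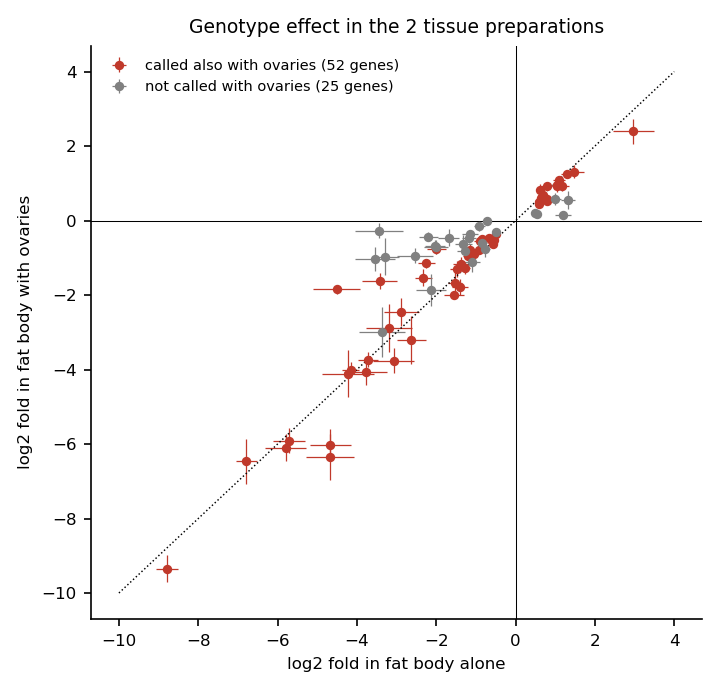
For the 77 fat body calls tested in both preparations, the log2 fold of homozygous over heterozygous with ovaries (vertical) is plotted against that in fat body alone (horizontal), with limma standard errors as bars and a dotted line of equality. The 52 genes called in both are red, and all 77 points lie in the quadrants of equal sign.

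An interaction term over all 16 libraries found 4 of 7824 genes (0.0511%) whose genotype effect differed between fat body alone and fat body with ovaries, and 3 of them (0.0383%) had the more negative fold in fat body alone. Of the 78 fat body calls, hdly was among them, since its fold of -2.20 in fat body alone stood beside -0.43 ± 0.12 with ovaries. The medians for the proteasome and the cytosolic ribosome with ovaries were -0.15 and 0.26. For other calls that passed in 1 preparation and not in the other the term did not pass, which does not show that their effects are equal.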

How the data were processed

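Total RNA libraries (RNAeasy extraction, Illumina sequencing, per the labels' protocols) were handled, per the submitters' processing notes, with Trimmomatic 0.36, STAR 2.5.2b, the dm6 genome and featureCounts from Subread 1.5.0p3. Settings for strand, annotation and multiply mapped reads were not given in the sources used here. The deposited signal of 16727 genes is gene counts divided by a size factor of each library, and DESeq2 is named as the normalising tool by the authors' table. Every value above 0 divided by the smallest of its library gave a whole number (tolerance 1e-06), so reads were recovered by division. Limits for 0 reads use 3 reads and, like the intervals, cover counting error only.

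Groups followed the sample titles. Genes with a mean of at least 10 over the 8 fat body libraries were fitted with limma 3.58.1 in R 4.3.3 on log2(value + 1), with an intensity trend, 2-sided tests and Benjamini-Hochberg adjustment at 0.05. Folds are on that scale, which understates changes of low genes. The libraries with ovaries were fitted alone in the same way, and an interaction term was fitted over all 16. Alternatives used other pseudocounts, filters and scalings, edgeR 4.0.16 and DESeq2 1.42.0 on recovered reads, and fits without single libraries. Same-number homozygous and heterozygous libraries deviated together (correlations across genes of 0.722, 0.457, 0.340 and 0.247), a pairing read from the data, and the replicate number was fitted as a block.

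The text names dLmx1a, then 12 symbols each way (no CG or CR numbers) by size of fold among calls whose higher group averages 50 or more and whose groups do not overlap, the 5 largest folds each way, and, for some of 41 lists, members with the smallest p. Uch, Uch-L5, CSN5, Cat, CG4328, bam, Mhc, IM2, Spc105R and genes named for passing with the block were added after their values were seen. The comparison and lists were chosen with earlier results of these data known. The script was tested on simulated data that held no shared shift of same-number libraries, so that test does not cover such shifts. Positions came from the Release 6 reference table, and promoters were not analysed here.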

Additional observations from a re-analysis of the deposited data

Results flagged for a closer look

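The number of reads on genes in heterozygous fat body replicate 1, 29741067, lay far from the other 3 heterozygous libraries, with a gap of 0.846 of the group's range. It was the only such library in 68 groups of 4 values looked at, where chance gives about 1 in 20.

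The genotype effect differed between fat body alone and fat body with ovaries in 4 genes, by an interaction term over 16 libraries (limma, Benjamini-Hochberg). The log2 fold in fat body alone minus that with ovaries was -2.97 for Spc105R, a kinetochore gene, and -2.87 for CR32207 (limma adjusted p = 0.0405 each). Spc105R had 7.65, 1.21, 4.87 and 4.99 normalised counts in homozygous fat body and 30.2, 25.6, 24.5 and 17.2 in heterozygous fat body, a log2 fold of -2.29 ± 0.48 (limma adjusted p = 0.0763). With ovaries it had 274, 268, 353 and 302 in homozygous libraries and 200.1, 131, 210.1 and 211 in heterozygous ones, so the sign was the opposite. CR32207 had 0, 1.21, 0 and 0 in homozygous fat body, where 0 reads allow up to 4.59, 2.92 and 2.99, and 20.8, 13.3, 10.03 and 8.60 in heterozygous fat body. For hdly the difference was -1.77 (limma adjusted p = 0.0405).

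The gene wb, a laminin alpha chain gene, differed the other way, by 3.20 (adjusted p = 0.0478). It was lower in homozygous libraries with ovaries, at 16.2, 17.2, 11.7 and 9.42 against 96.5, 98.8, 153 and 144 in heterozygous ones. In fat body alone it had 9.18, 7.28, 3.90 and 8.98 in homozygous libraries and 2.83, 13.3, 5.57 and 7.52 in heterozygous ones, where the groups overlapped.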

How the results depend on the processing

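The count of 78 calls (21 higher, 57 lower, 84.2% of placed ones on chromosome 3, 52 also called with ovaries) kept within 1.5 times under both other pseudocounts, both other filters, TMM factors, edgeR and no intensity trend. With equal totals 92 genes were lower and 74.0% of placed calls lay on chromosome 3. DESeq2 on recovered reads called 465 (247 higher, 218 lower, 63.7% on chromosome 3, 233 shared with ovaries), and the fit on all 16 libraries 422 (179, 243, 66.0% and 123). The replicate block, which pairs same-number libraries, gave 759 (393, 366, 55.4% and 350). Without replicates, 1 at a time, there were 8 to 117 calls (0 to 33 higher, 8 to 84 lower, 81.6% to 93.3% on chromosome 3, 8 to 67 shared). Without homozygous replicate 1 and heterozygous replicate 2 there were 37 (7 higher, 30 lower, 25 shared). Leaving 1 pair out of the block fit, chosen after seeing the data, gave 69 to 437 calls. Decreases outnumbered increases with limma without the block, and increases outnumbered decreases with DESeq2. With the block the direction depended on scaling and on single pairs. Increases led with the deposited scaling and with TMM factors (384 higher, 370 lower), and decreases with equal totals (212 higher, 636 lower). Without pair 1, 2, 3 or 4 there were 123, 226, 27 and 214 higher genes and 130, 192, 42 and 223 lower ones. None of the 32 named calls changed sign, while the medians of the fat body markers and ecdysone genes, near 0, did. The causes were not tested. The homeodomain motif in promoters was not run. Depth limits genes under 10 normalised counts, dLmx1a among them.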
